A study of Mus musculus with 18 samples.

Results

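RNF2-BAP1 double knockout mouse embryonic stem cells (3 libraries) were compared with BAP1 knockout cells (3 libraries), 6 of the 18 libraries of the series, across all genes. The groups were chosen by their labels alone, and 16875 of the 36528 listed genes passed the filter on low counts and were tested. The source names of both groups carry 4-hydroxytamoxifen, given at 100 nM for 4 days, which switches on Cre and so deletes the targeted alleles, and all cells of the series had emricasan, a caspase inhibitor that keeps cells lacking BAP1 alive. Levels in the untreated BAP1 knockout line (3 libraries, no drug) and in wild type cells (3 libraries) are given for reference; no label says whether the wild type had the drug. The remaining libraries came from cells that carry the inactive C91A form of BAP1 as a knock-in, without and with the drug. The series' design text lists the double knockout without the drug in its name, and treatment of that group is therefore taken from the source names. An untreated control of the double knockout line was not analysed here, and the labels do not say whether both knockouts were made in 1 line, nor how many clones were used. Loss of RNF2 and other differences between the lines can therefore not be told apart. The labels do not say whether the 3 libraries of a group came from separate cultures, so p-values measure only the spread between these libraries.

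RNF2, also called RING1B, is the main catalytic subunit of Polycomb repressive complex 1 (PRC1), which places ubiquitin on histone H2A, and RING1 is its close paralog. BAP1 with an ASXL partner removes that ubiquitin. PRC1 and the histone H3 methyltransferase complex PRC2 together keep developmental regulators such as the HOX genes silent in embryonic stem cells, and PRC1 variants that contain PCGF6, L3MBTL2, E2F6, MGA and MAX occupy genes of the germline. The comparison asks which transcripts of cells without BAP1 depend on whether RNF2 is present.

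Levels are given as CPM, which are counts relative to a TMM-scaled library total, in libraries 1, 2 and 3 of a group. Differences are log2 fold changes of double knockout over BAP1 knockout with their standard error (SE), and adjusted p-values come from the quasi-likelihood test of edgeR, adjusted by Benjamini-Hochberg over the 16875 genes, with 0.05 as the threshold. The double knockout libraries held 14.2, 13.0 and 23.0 M (mega) counts and the knockout libraries 12.1, 8.11 and 18 M. Correlations of log2 CPM were 0.986 to 0.993 within the groups and 0.958 to 0.963 between them. All 9 embryonic stem cell markers stood above 1 CPM in all 6 libraries, with a summed level of 4169 to 4393 CPM in the double knockout and 3566 to 3715 CPM in the knockout. On the first principal component of all 18 libraries (40.1% of the variance) the double knockout lay at -26.5 to -25.0, on the side of the wild type and the untreated knockout line (-20.4 to -16.5), and the knockout at 44.4 to 51.0. On the second (26.1%) the double knockout, at 36.2 to 38.3, lay farthest from 0 on the side of the knockout, at 19.6 to 23.3.

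Transcript levels differed widely between the double and the single knockout. Of the genes tested, 5500 were higher in the double knockout (32.6%) and 5171 were lower (30.6%), 10671 in all (63.2%). A gene list whose shares lie near 32.6% and 30.6% does not stand out from all genes. Large differences were mostly upward: 2197 genes were at least 2-fold higher (13.0%) and 543 at least 2-fold lower (3.22%), and at 4-fold the numbers were 798 and 52. Median log2 fold change over all genes was 0.03. Double knockout libraries stood above all 3 knockout libraries for 33.7% of genes and below them for 31.6%. They stood above all 15 other libraries of the series for 1079 genes (6.39%) and below all of them for 1057 (6.26%). With a coefficient of variation between replicates of 4.47%, small differences passed the test.

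**Figure D1:**
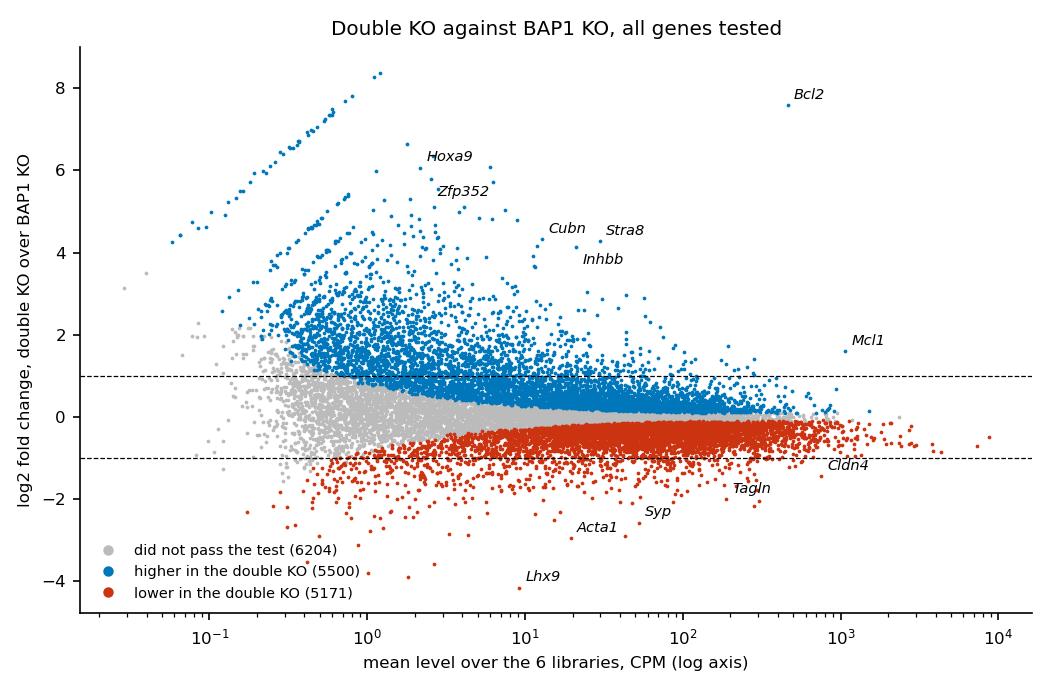
Log2 fold change of double knockout over BAP1 knockout (vertical axis) against the mean CPM of the 6 libraries (log axis), 1 point for each of the 16875 genes tested, with dashed lines at 2-fold. Bcl2 stands alone at a high level and a log2 fold change of 7.59, and most points past the upper dashed line lie at low levels.

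Large upward differences were concentrated among weakly expressed genes. Below a mean of 1 CPM, 36.9% of 2187 genes were at least 2-fold higher and 3.66% at least 2-fold lower. From 3 to 10 CPM the shares were 17.4% and 3.62%, and at 100 CPM and over they were 0.671% and 2.50% of 2681 genes. Genes at 100 CPM and over were more often lower (62.2%) than higher (17.3%) in the double knockout. The filter bears on this: 356 tested genes passed it only through the double knockout libraries and had to be high there. Without them, 32.9% of the genes below 1 CPM were still at least 2-fold higher and 4.25% at least 2-fold lower. Thinned to 8.11 M counts each, the double knockout libraries held 20404 to 20577 genes with a count, the knockout libraries 18631 to 18724, the untreated knockout line 19736 to 19789 and the wild type 19771 to 19885. The groups did not overlap, although an exact permutation test of 3 against 3 libraries cannot go below p = 0.10.

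**Figure D2:**
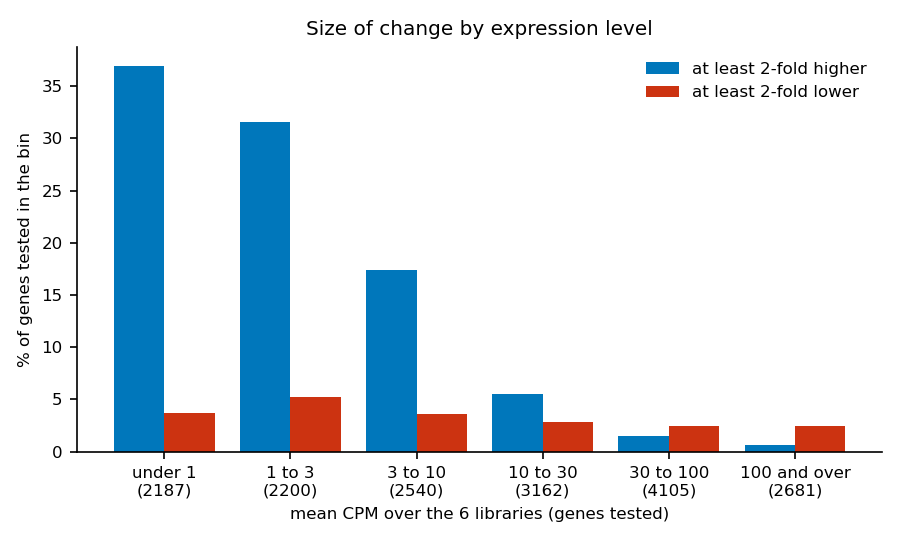
Share of tested genes (vertical axis, %) at least 2-fold higher (blue) or lower (red) in the double knockout, by mean CPM of the 6 libraries, with the number of genes in each bin. The share of higher genes falls from 36.9% to 0.671% across the bins, while the share of lower genes stays between 2.44% and 5.23%.

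The deleted genes were read first. Rnf2 stood at 77.4, 75.6 and 70.6 CPM in the double knockout and at 114, 127 and 128 CPM in the BAP1 knockout. All double knockout libraries were lower and the groups did not overlap (log2 fold change -0.73, SE 0.06, adjusted p = 1.5e-13). Bap1 stood at 139, 161 and 158 CPM against 151, 147 and 152 CPM, overlapping ranges, and the log2 fold change was 0.03 (SE 0.05, adjusted p = 0.67). Its means in the untreated line and the wild type were 169 and 178 CPM, so the transcript was only slightly lower in both knockouts. Ring1, the paralog of Rnf2, stood at 19.3, 20.5 and 18.1 CPM against 18.3, 17.8 and 17.4 CPM (log2 fold change 0.11, SE 0.10, adjusted p = 0.33). A count per gene also takes in reads from transcripts without the deleted exons, and a transcript level is therefore no full check of the genotype.

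Bcl2, which blocks mitochondrial apoptosis, showed the highest fold of all genes whose log2 CPM averaged 2 or more. It stood at 893, 984 and 876 CPM in the double knockout and at 3.33, 4.23 and 6.02 CPM in the BAP1 knockout. The difference was 7.59 on the log2 scale (SE 0.33, adjusted p = 9.8e-23), and the groups lay far apart. Untreated cells of the knockout line held 882, 847 and 855 CPM and wild type cells 682, 773 and 935 CPM, so that the double knockout overlapped both. Bcl2 in the BAP1 knockout against its untreated line had a log2 fold change of -7.50; that comparison uses the same 3 knockout libraries. Mcl1, a second survival protein, stood at 1643, 1631 and 1549 CPM in the double knockout and at 518, 554 and 526 CPM in the knockout (log2 fold change 1.59, SE 0.04, adjusted p = 1.0e-29). Its double knockout libraries were above those of the untreated line, with a mean of 1436 CPM, and of the wild type, with a mean of 1293 CPM.

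The other members of the BCL2 family differed less. Among survival genes, Bcl2l1 (encoding BCL-XL) stood at 74.1, 80.3 and 76.0 CPM against 95.6, 96.1 and 102 CPM (log2 fold change -0.35, adjusted p = 5.1e-07), and Bcl2l2 at 31.3, 28.9 and 31.5 CPM against 39.3, 39.1 and 42.7 CPM (-0.41, adjusted p = 1.2e-05). Both were lower in every double knockout library. Only 4 of the 8 listed survival genes passed the filter, 2 of them higher and 2 lower. Of 11 pro-apoptotic genes, 4 were higher (36.4%) and 3 lower (27.3%), near the 32.6% and 30.6% of all genes, with a median of 0.16. The 3 lower ones were Bbc3, which encodes the BH3-only protein PUMA, at -0.98 (190, 209 and 196 CPM against 422, 378 and 375 CPM), the pore former Bax at -0.54 and Pmaip1, which encodes NOXA, at -0.48. Higher ones included Bcl2l11, which encodes BIM, at 0.38 (59.5, 60.9 and 64.1 CPM against 47.4, 46.5 and 48.1 CPM), and Hrk at 0.65.

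**Figure D3:**
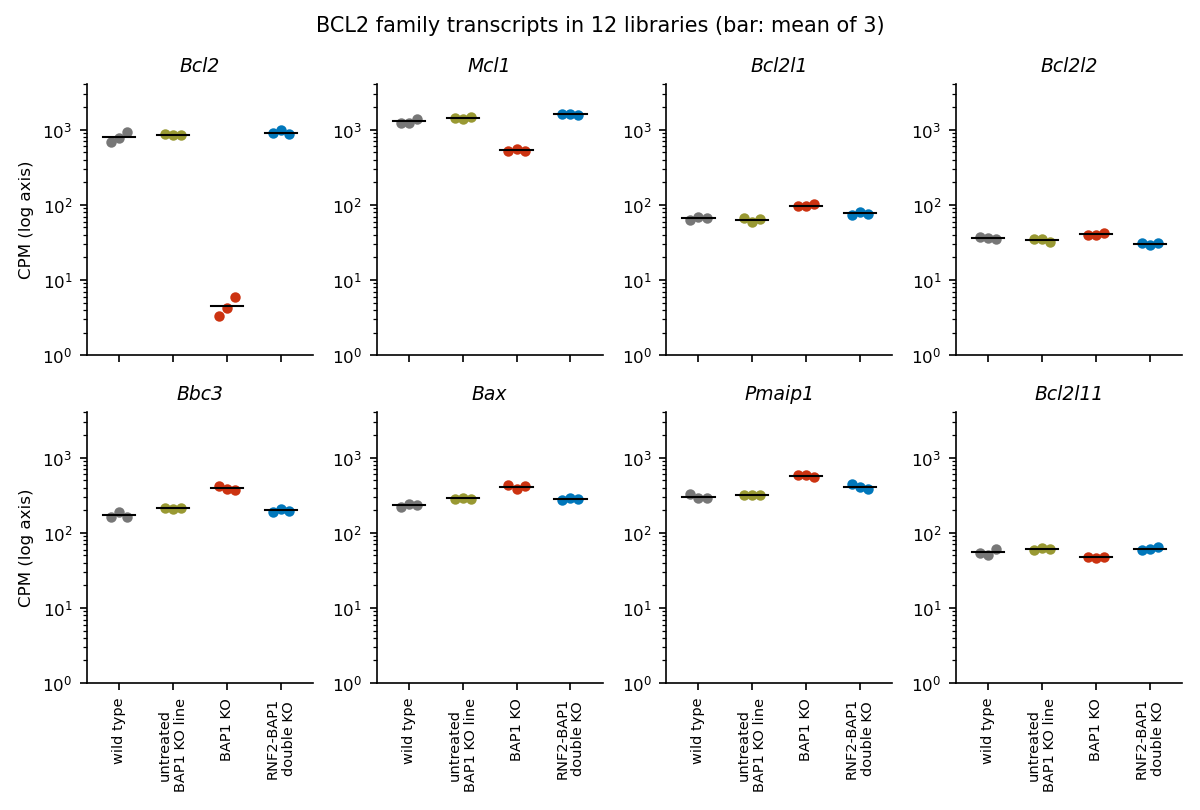
CPM (log axis) of 8 BCL2 family transcripts in each library of 4 groups, with a bar at the mean of 3 libraries. Bcl2 lies at 3.33 to 6.02 CPM in the BAP1 knockout and at 682 CPM or more in every library of the other 3 groups, while Bbc3, Bax and Pmaip1 are highest in the BAP1 knockout.

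The start region of Bcl2 is shown with those of a germline and a 2-cell-stage gene described further on, because CpG islands are known to attract Polycomb complexes and these 3 stretches differ in CpG content. The 3 genes are examples chosen after their values were seen. Each run holds the 250 bases before 1 transcript start per gene, 5′ to 3′, from the RefSeq promoter table (GRCm38.p6), with CpG in capitals. For Stra8 that start lies 785 bases inside the gene's annotated span, and for Bcl2 and Zfp352 at its edge.
Bcl2, chr1:106714291-106714540, minus strand: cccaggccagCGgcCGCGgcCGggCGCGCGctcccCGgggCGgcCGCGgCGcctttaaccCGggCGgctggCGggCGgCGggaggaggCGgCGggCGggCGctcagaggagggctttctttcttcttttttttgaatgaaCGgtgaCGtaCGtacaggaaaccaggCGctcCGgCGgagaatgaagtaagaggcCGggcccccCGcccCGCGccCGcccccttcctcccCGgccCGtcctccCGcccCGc
Stra8, chr6:34920698-34920947, plus strand: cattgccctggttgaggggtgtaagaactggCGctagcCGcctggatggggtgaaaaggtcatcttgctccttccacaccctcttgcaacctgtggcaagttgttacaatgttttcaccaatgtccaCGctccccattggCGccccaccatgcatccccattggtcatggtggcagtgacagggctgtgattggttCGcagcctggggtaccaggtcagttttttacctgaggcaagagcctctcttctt
Zfp352, chr4:90218570-90218819, plus strand: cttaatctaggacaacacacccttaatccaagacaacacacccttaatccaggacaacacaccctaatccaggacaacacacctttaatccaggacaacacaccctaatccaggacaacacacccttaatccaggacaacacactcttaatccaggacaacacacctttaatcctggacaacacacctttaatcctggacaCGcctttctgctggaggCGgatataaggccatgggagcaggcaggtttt
The Bcl2 stretch held 36 CpG, that of Stra8 5 and that of Zfp352 2. Of the 2197 genes at least 2-fold higher only 71.6% had a promoter in that table, so a summary of CpG over them was void, and the 3 examples say nothing of the rest.

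Among the 8 core PRC1 genes, 1 was higher (12.5%, beside 32.6% of all genes) and 3 lower (37.5%, beside 30.6%) in the double knockout. Apart from Rnf2 the lower ones were Pcgf1 and Pcgf3, whose calls were lost when genes under a mean of 50 counts were left out. The higher one was Bmi1, a subunit of canonical PRC1, at 8.63, 8.16 and 8.99 CPM against 3.96, 6.74 and 5.60 CPM (log2 fold change 0.69, SE 0.16, adjusted p = 0.00029). Of 24 tested accessory PRC1 genes, 9 were higher (37.5%) and 6 lower (25%), near the 32.6% and 30.6% of all genes (median 0.06). The chromobox gene Cbx8, whose protein reads methylated histone H3, stood at 5.30, 5.2 and 5.64 CPM against 0.360, 1.32 and 0.963 CPM (2.66, SE 0.30, adjusted p = 3.1e-10), and above the means of the untreated line (0.735 CPM) and the wild type (1.61 CPM). Cbx2 followed at 0.82 and Kdm2b, which carries a variant PRC1 to CpG islands, at 0.47 (102, 109 and 109 CPM against 78.5, 73.5 and 78.1 CPM). L3mbtl2 was higher by 0.38, and Max and Scmh1 were lower, at -0.34 and -0.46.

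PRC2 genes went both ways. Of 12 tested, 7 were higher (58.3%, beside 32.6% of all genes) and 4 lower (33.3%, beside 30.6%), with a median of 0.25. The core subunit Suz12 stood at 211, 193 and 192 CPM against 120, 122 and 122 CPM (log2 fold change 0.71, SE 0.06, adjusted p = 1.4e-13), and the accessory subunits Epop, Jarid2, Mtf2 and Aebp2 were higher by 0.83, 0.78, 0.55 and 0.48. The catalytic subunit Ezh2 was lower, at 240, 216 and 237 CPM against 312, 312 and 315 CPM (-0.44, SE 0.05, adjusted p = 2.3e-10), as were the histone-binding subunits Rbbp4 (-0.35) and Rbbp7 (-0.21). Groups of Suz12 and of Ezh2 did not overlap.

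Of 12 genes of the BAP1 complex 4 were higher (33.3%) and 5 lower (41.7%), beside 32.6% and 30.6% of all genes (median -0.07). Mbd6, at 180, 194 and 192 CPM against 418, 393 and 382 CPM (log2 fold change -1.08), showed the largest difference of them; it overlaps Ddit3, and since no source used here says whether counting took read strand into account, reads of the 2 genes in the overlap cannot be told apart. The forkhead partners Foxk2 and Foxk1 were lower (-0.62 and -0.50), while the glycosyltransferase Ogt (0.42) and its substrate Hcfc1 (0.25) were higher. Of 11 further H2A deubiquitinase genes, 4 were higher and 3 lower, again near the shares of all genes. Usp16 was higher by 0.41 (32.5, 25.9 and 27.6 CPM against 20.3, 23.4 and 21.3 CPM), and Usp22, of the SAGA complex, lower by 0.27 (289, 297 and 304 CPM against 357, 359 and 361 CPM).

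HOX genes, which set position along the body axis and are classical Polycomb targets, were higher in the double knockout, many of them from levels near 0. Hoxa9 stood at 4.77, 4.26 and 3.84 CPM against 0.0900, 0 and 0.0602 CPM, and by counts the ratio was 74.4 (95% interval of counting error 20.4 to 618). Hoxa10 stood at 4.90, 5.34 and 5.11 CPM against 0.270, 0.132 and 0.0602 CPM (log2 fold change 5.10, SE 0.40, adjusted p = 1.6e-14). Hoxc12 and Hoxc10 followed at 3.99 and 3.94. All double knockout libraries lay above the knockout for these 4 genes, and above the untreated line and the wild type, whose means for Hoxa10 were 0.154 and 0.191 CPM.

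Counted by the test, 32 of the 35 tested HOX genes (of 39 listed) were higher and 0 lower, 29 of them at least 2-fold, with a median of 2.20. However, 19 of the 35 passed the filter only through the double knockout libraries, which selects genes that are high there. Of all 356 such genes 67.1% were called higher. Of the 16 that passed without those libraries, 13 were higher and 0 lower (median 1.32), beside 31.8% higher among the 16519 genes that did so. For 13 of these 16 the double knockout libraries were the highest of all 18, against 5.50% of the 16519 genes. With no filter, 34 of all 39 were higher. By cluster, the 9 tested genes of Hoxa, the 9 of Hoxc and the 7 of Hoxd were all higher, with medians of 2.57, 2.55 and 3.14. In Hoxb 7 of 10 were higher, with a median of 1.0, and Hoxb5, Hoxb6 and Hoxb8 did not pass. These counts by cluster take in the 19 genes that passed only through the double knockout. The clusters were not counted without those genes, so a difference between clusters was not tested.

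Other homeobox genes were less uniform. Of 45 tested (49 listed), 30 were higher (66.7%, beside 32.6% of all genes), 22 of them at least 2-fold, and 3 lower (6.67%, beside 30.6%). The median was 1.11, or 0.44 when genes under a mean of 50 counts were left out (the stricter filter). Of the 45, 7 passed the filter only through the double knockout. Of the 38 that passed without those libraries, 23 were higher (60.5%) and 3 lower (7.89%), with a median of 0.93. The shares of the 16519 genes that did so were 31.8% and 31.3%. Vax2, of the ventral eye, stood at 7.45, 8.67 and 8.70 CPM against 0.990, 0.925 and 0.782 CPM (log2 fold change 3.22, SE 0.26, adjusted p = 3.5e-14), with 1.57 CPM in the untreated line; it overlaps an antisense gene. Pitx1, of the hindlimb and pituitary, was higher by 2.32 and Msx1 by 2.08. Lhx9, a factor of the gonad and forebrain, went the opposite way and had the lowest log2 fold change of the genes whose log2 CPM averaged 2 or more. It stood at 0.785, 1.23 and 0.899 CPM against 17.6, 19.6 and 14.9 CPM (-4.15, SE 0.19, adjusted p = 8.7e-22), and its means in the untreated line and the wild type were 2.30 and 1.82 CPM. Of 24 tested T-box, forkhead and SOX genes, 11 were higher (45.8%) and 7 lower (29.2%), beside 32.6% and 30.6% of all genes. Their median of 0.36 became -0.20 under the stricter filter. Of the higher ones, 1 passed the filter only through the double knockout.

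Germline genes were mostly higher in the double knockout. Stra8, the trigger of meiotic entry, stood at 61.3, 53.8 and 54.1 CPM against 2.79, 3.30 and 2.77 CPM (log2 fold change 4.28, SE 0.12, adjusted p = 1.5e-28). Sycp1, of the synaptonemal complex that joins paired chromosomes, stood at 26.9, 21.3 and 18.9 CPM against 1.62, 1.59 and 0.782 CPM (4.17, SE 0.21, adjusted p = 1.8e-20). Neither gene's groups overlapped, and the double knockout was also far above the untreated line, with means of 7.47 and 2.23 CPM, and the wild type, with 4.52 and 2.28 CPM. Tex101, a germ cell surface protein, and Asz1, of the piRNA pathway, were higher by 4.39 and 4.21. Tuba3a, a testis tubulin with near-identical copies, stood at 15.2, 14.9 and 14.4 CPM against 2.70, 1.06 and 1.20 CPM (3.16), and at a mean of 11.3 CPM in the untreated line.

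Of 31 tested germline genes (35 listed), 28 were higher, 25 of them at least 2-fold, and 1, Prdm1, was lower (-0.36; named because it was the single one). Sycp3 and Hormad1 did not pass. The median was 2.30, and 1.93 under the stricter filter. The filter weighed little here: 29 genes passed it without the double knockout libraries, 26 of them higher and 1 lower (median 1.99). Their shares were 89.7% and 3.45%, beside 31.8% and 31.3% of the 16519 genes that did so. In 17 of the 29 germline genes (58.6%) the double knockout libraries were the highest of all 18, against 5.50% of the 16519 genes.

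Promoters of germline genes are shown because the MGA and MAX proteins of the germline-associated PRC1 variant bind the E-box CACGTG, a palindrome that reads the same on both strands. RefSeq promoters (250 bases before to 50 after the start, GRCm38.p6) were found for 28 of the 31 genes, and 14 of them (50.0%) held CACGTG, against 7.24% of the 27025 promoters of the table. That background takes in promoters of untested genes and is poorer in CpG. Of its promoters 35.2% held 15 or more CpG, against 78.6% of the germline ones, so the CACGTG shares are not compared like for like. The 6 windows below run 5′ to 3′ along the gene, with CACGTG in capitals and 20 bases on each side. They belong to Sycp1, 4 other strongly raised genes and Sycp3, which did not pass, and were chosen after their values were seen.
Sycp1, chr3:102936169-102936214, minus strand: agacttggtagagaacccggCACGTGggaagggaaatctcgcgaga
Piwil1, chr5:128736072-128736117, plus strand: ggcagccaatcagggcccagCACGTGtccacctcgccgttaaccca
Stk31, chr6:49395464-49395509, plus strand: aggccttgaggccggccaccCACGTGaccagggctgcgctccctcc
Slc25a31, chr3:40708758-40708803, plus strand: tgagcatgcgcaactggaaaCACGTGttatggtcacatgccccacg
Brdt, chr5:107331096-107331141, plus strand: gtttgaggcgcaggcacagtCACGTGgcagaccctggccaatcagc
Sycp3, chr10:88459524-88459569, plus strand: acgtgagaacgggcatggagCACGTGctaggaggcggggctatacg
In Piwil1, Stk31 and Brdt the table's start lies 175, 33 and 78 bases inside the gene's annotated span. The motif began 94, 154, 55, 93, 78 and 43 bases before the start in these genes, whose log2 fold changes were 4.17, 2.94, 2.83, 2.54, 1.99 and -0.27. Of the 14 genes with the motif 12 were higher and 0 lower (median 2.27), and of the 14 without it 13 were higher and 1 lower (median 1.91). For Prdm1, the lower gene, the table's start lies 69810 bases inside the annotated span, and for Stag3, counted with the motif, 7995 bases. These windows may miss other starts of the genes. Stra8 held no CACGTG in this window. A match of letters is a description and not a bound site.

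Transcripts typical of the 2-cell embryo, which a small share of embryonic stem cells produces at any time, were higher in the double knockout. Zfp352 stood at 5.17, 4.26 and 5.64 CPM against 0, 0.132 and 0.120 CPM, a ratio by counts of 60.6 (95% interval 20.5 to 296). Zscan4a, of a telomere-linked family, stood at 3.99, 4.62 and 3.80 CPM against 0.270, 0.132 and 0.120 CPM (log2 fold change 4.54, SE 0.44, adjusted p = 1.2e-11), and Usp17lb was higher by 4.50. Duxf3, also called Dux, whose protein switches on this programme, had 86 counts over the 3 double knockout libraries and 0 over the knockout, which makes it at least 18.9-fold higher by a floor of 3 counts over the group. Tdpoz8 was likewise at least 26.1-fold higher. Means of Zfp352 and Zscan4a in the untreated line were 0.0935 and 0.128 CPM.

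All 15 tested genes of this list (of 20) were higher, all at least 2-fold, and had the double knockout libraries as the highest of all 18. This says little by itself, since 13 of the 15 passed the filter only through those libraries. With no filter, 17 of the 18 with any count were higher. Zscan4, Usp17l, Tdpoz and Duxf3 have near-identical copies whose reads the authors' counting may split, so single values are uncertain. In bulk RNA, more cells in this state and more RNA per cell cannot be told apart.

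In all, 233 genes called higher had at most 2 counts in every BAP1 knockout library, and 97 of them had 10 or more in each double knockout library. The 6 with the highest fitted folds were Tdpoz8, Duxf3, Trim75 (at least 27.7-fold higher), Eif4a3l1 (15.8), 4933427D06Rik (14.3) and Sez6l (13.8), all at 0 in the knockout. Trim75 stood at 2.22, 2.82 and 2.17 CPM.

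**Figure D4:**
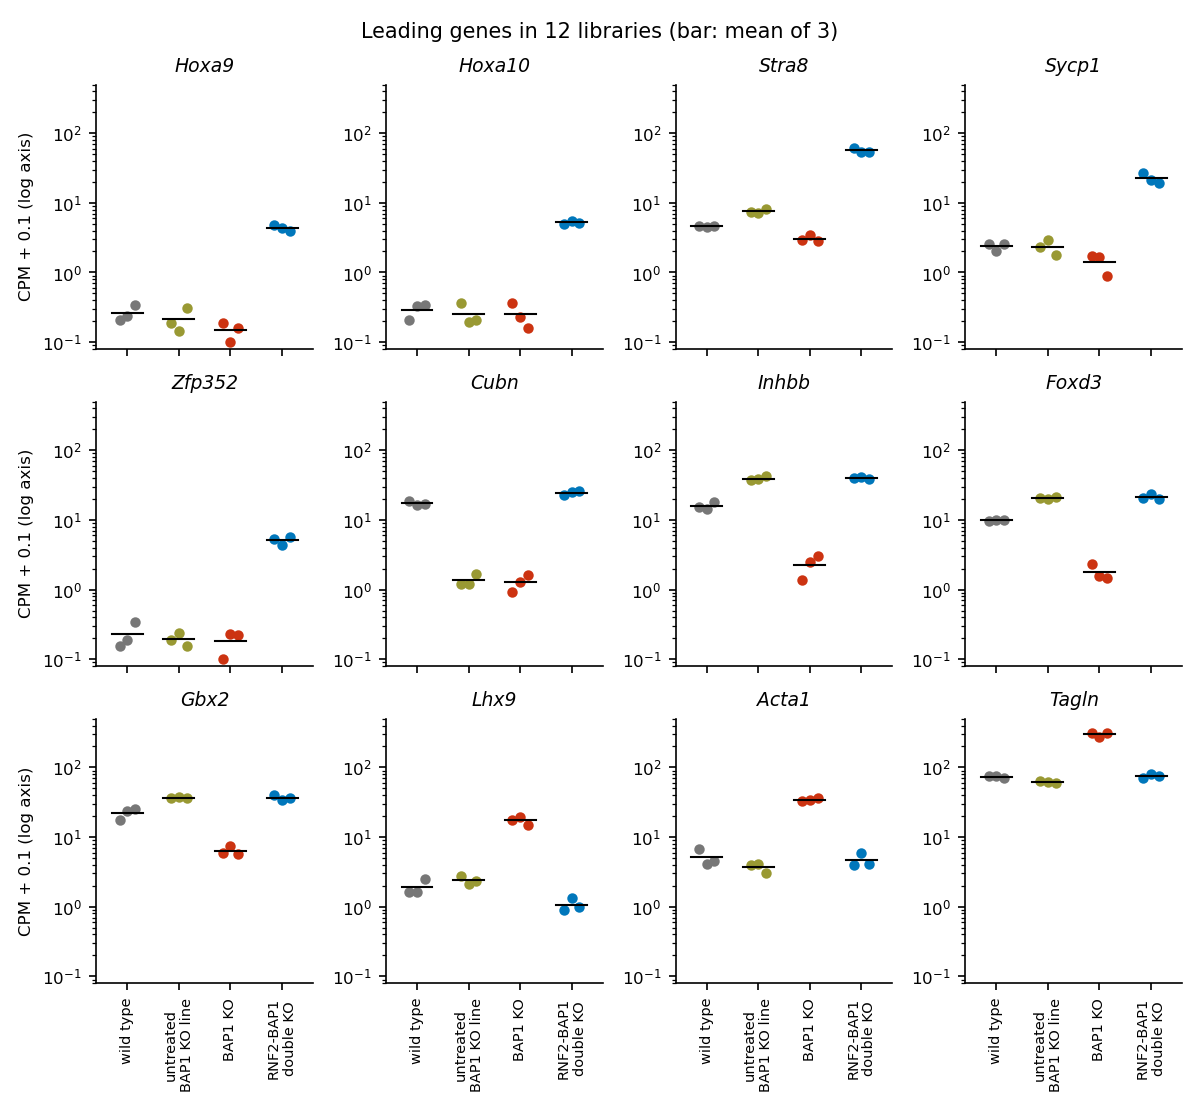
CPM plus 0.1 (log axis) of 12 genes in each library of 4 groups, with a bar at the mean of 3 libraries. Hoxa9, Hoxa10, Stra8, Sycp1 and Zfp352 are highest in the double knockout, Inhbb, Foxd3 and Gbx2 are lowest in the BAP1 knockout, and Lhx9, Acta1 and Tagln are highest there.

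Pluripotency genes were mostly higher in the double knockout, with Foxd3 and Gbx2 near the level of the untreated line and Klf4, Dppa2 and Dnmt3l above it. Of 16 general genes 11 were higher (68.8%) and 3 lower (18.8%), with a median of 0.43. Of 20 naive genes 13 were higher (65%) and 3 lower (15%), with a median of 0.31. The shares of all genes were 32.6% and 30.6%. Foxd3, a forkhead factor of the epiblast, stood at 20.7, 23.5 and 19.9 CPM against 2.25, 1.45 and 1.38 CPM (log2 fold change 3.66, SE 0.16, adjusted p = 9.8e-23), beside 20.7, 19.7 and 21.3 CPM in the untreated line. Gbx2, a target of LIF signalling, stood at 40.4, 33.5 and 36.7 CPM against 5.76, 7.27 and 5.66 CPM (2.60), beside 35.9, 38.1 and 35.9 CPM. Klf4 stood at 349, 355 and 359 CPM against 161, 153 and 146 CPM (1.21), above the 248 CPM mean of the untreated line and the 105 CPM of the wild type. Dppa2 (1.97) had a mean of 31.8 CPM beside 21.2 CPM in the untreated line, and Dnmt3l (1.72, overlapping Aire) a mean of 297 beside 185 CPM. Wild type means were 18.3 CPM for Dppa2, 9.86 CPM for Foxd3 and 22.1 CPM for Gbx2. For Dnmt3l the wild type mean, 321 CPM, was above that of the double knockout. Tcl1 (1.91), Nr0b1 (1.33) and Tet2 (1.05) were also higher, and none of these groups overlapped.

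Formative epiblast genes were higher in 12 of 18 cases (66.7%, beside 32.6% of all genes) and lower in 4 (22.2%, beside 30.6%). Their median was 0.51. Tcf15, which primes cells for differentiation, stood at 39.8, 45.2 and 36.9 CPM against 7.56, 5.68 and 6.50 CPM (log2 fold change 2.60), and the ETS factor Etv4 at 141, 159 and 157 CPM against 52.3, 51.4 and 49.6 CPM (1.58). Both stood near their means in the untreated line, 39.0 and 153 CPM. Cdh2, which encodes N-cadherin, was lower, at 15.8, 14.6 and 15.2 CPM against 30.4, 30.3 and 32.8 CPM (-1.04), and was at 5.05 CPM in the untreated line.

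Endoderm genes were higher in 16 of 22 cases (72.7%, beside 32.6% of all genes) and lower in 4 (18.2%, beside 30.6%). Of the higher ones, 10 were at least 2-fold higher, and the median of the list was 0.73. Cubn, an endocytic receptor of the visceral endoderm, stood at 23.1, 24.7 and 26.0 CPM against 0.810, 1.19 and 1.5 CPM (log2 fold change 4.34, SE 0.17, adjusted p = 3.1e-24). It was at 1.10, 1.12 and 1.58 CPM in the untreated knockout line but at 18.6, 16.1 and 16.8 CPM in wild type, so the 2 reference groups did not overlap either. Pdgfra, of the primitive endoderm, was higher by 2.43, the homeobox gene Rhox5 by 2.20 (119, 120 and 116 CPM against 23.3, 26.2 and 27.2 CPM), and the basement membrane collagen Col4a1 by 1.02 (361, 395 and 374 CPM against 194, 186 and 179 CPM). The 5 primitive endoderm markers summed to 40.1 to 43.1 CPM in the double knockout and 11.8 to 12.8 CPM in the knockout. In the untreated line they summed to 8.91 to 9.05 CPM, and in wild type to 18.5 to 21.8 CPM. The part of such cells in these differences was not tested.

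Of 23 tested mesoderm genes 11 were higher (47.8%, beside 32.6% of all genes) and 3 lower (13.0%, beside 30.6%). The median was 0.86, and 1.6 under the stricter filter. Of the 21 that passed the filter without the double knockout libraries, 9 were higher (42.9%) and 3 lower (median 0.76). The caudal gene Cdx1 was higher by 2.35, Tbx20 by 2.20, Bmp4 by 1.95 and Eomes by 1.88. Gata2 was lower by 1.53, at 18.4, 17.1 and 17.4 CPM against 52.3, 48.0 and 51.7 CPM. Of 18 trophoblast genes 10 were higher (55.6%) and 5 lower (27.8%), with a median of 0.42 and Tfap2a at 2.74. The 5 trophoblast markers summed to 13.4 to 18 CPM against 8.98 to 12.7 CPM. Neuroectoderm genes were divided, with 8 of 23 higher and 6 lower (median 0.09), near the shares of all genes. Of the 21 that passed the filter without the double knockout libraries, 7 were higher and 6 lower (median 0.02). Pax3 (2.34) and Zic1 (2.15, at 7.06, 5.99 and 6.91 CPM against 1.53, 1.45 and 1.5 CPM) were higher, and the adhesion molecule Ncam1 was lower (-1.29).

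Signalling genes were led by Inhbb, which encodes a subunit of activin B. It stood at 39.5, 41.7 and 38.3 CPM in the double knockout and at 1.26, 2.38 and 2.89 CPM in the knockout (log2 fold change 4.13, SE 0.15, adjusted p = 3.6e-25), with 37.4, 38 and 42.4 CPM in the untreated line. Of 35 genes of the TGF-beta, activin and BMP pathways 17 were higher (48.6%) and 12 lower (34.3%), with a median of 0.10. In the FGF and ERK list 19 of 32 were higher (59.4%) and 9 lower (28.1%), with a median of 0.56. The shares lower were near the 30.6% of all genes, and the shares higher stood above their 32.6%. The feedback inhibitor Spry4 stood at 101, 108 and 103 CPM against 21.5, 18.9 and 21.3 CPM (2.32), and the ligands Fgf3 and Fgf15 were higher by 2.21 and 1.86. Of 32 WNT genes 11 were higher (34.4%, near the 32.6% of all genes) and 7 lower, and their median of 0.23 became 0.03 under the stricter filter. The secreted WNT inhibitor Notum was higher, at 19, 18.3 and 18.4 CPM against 3.87, 3.57 and 3.31 CPM (2.38). Hedgehog and Notch genes were lower in 13 of 25 cases (52%, beside 30.6% of all genes) and higher in 6 (24%, beside 32.6%). Their median was -0.21, with the target Hes1 at -0.95 and the receptor Notch4 at 1.91.

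Further genes with the highest folds had no list of their own. The noncoding RNA Halr1, next to the Hoxa cluster, stood at 20.7, 19.6 and 22.7 CPM against 0.900, 2.11 and 1.38 CPM (log2 fold change 3.92), and in the untreated line at 20.3, 19.97 and 22.2 CPM. Zbtb32, a transcriptional repressor known from lymphocytes, was higher by 3.68, Exoc3l by 3.39 and the membrane peptidase Dpp4 by 3.27. Among abundant transcripts, the metallothionein Mt2 was higher by 1.42 (396, 433 and 397 CPM against 148, 156 and 154 CPM).

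Some genes of the contractile apparatus were lower in the double knockout. Acta1, the skeletal muscle actin, stood at 3.86, 5.85 and 4.00 CPM against 33.3, 33.7 and 36.2 CPM (log2 fold change -2.95, SE 0.14, adjusted p = 1.0e-21). Tagln, of the actin cytoskeleton, stood at 71.0, 80.0 and 75.4 CPM against 311, 276 and 312 CPM (-1.99, SE 0.06, adjusted p = 5.7e-29); it overlaps Pcsk7. Both were near the untreated line, with means of 3.61 and 62.0 CPM, and the groups did not overlap. Of 24 tested contractile and fibroblast genes, 13 were lower (54.2%, beside 30.6% of all genes), 7 of them at least 2-fold, and 9 higher (37.5%, beside 32.6%), 5 of them at least 2-fold (median -0.23). The higher ones included the fibrillar collagen Col3a1 (2.05) and S100a4 (1.76), and 1 of the 9 passed the filter only through the double knockout. The 7 fibroblast markers summed to 74.5 to 76.1 CPM in the double knockout and 44.9 to 48.8 CPM in the knockout, with Lum at 0 in all but 1 of the 6 libraries.

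The other lowest genes were of mixed function. Syp, a synaptic vesicle protein, stood at 15, 14.9 and 15.4 CPM against 91, 91.8 and 87.7 CPM (log2 fold change -2.57), below the 31.8 CPM of the untreated line. H2-K2, a class I histocompatibility gene with near-identical copies, was at -2.89, the lipase Lpl at -2.51, the tendon factor Scx at -2.36 and the homeobox gene Gsx2 at -2.34. They were followed by the complement gene C2 (-2.31), the clock-linked repressor Bhlhe40 (-2.16), Scrn1 (-2.10), the stem cell surface protein Prom1 (-2.08) and Clic5 (-2.06). Among abundant transcripts, the tight junction gene Cldn4 stood at 369, 454 and 396 CPM against 1144, 1036 and 1112 CPM (-1.44), the lysosomal protease Ctsb was at -1.20 and the ferritin gene Ftl1 at -1.08. The noncoding RNA 2410006H16Rik, a host of small nucleolar RNAs, was at -1.07. Of these, Scx, Scrn1, Bhlhe40, Ctsb and 2410006H16Rik overlap other genes, as do Bcl2l1, Bcl2l11, Cbx2, Col4a1, Fgf15, L3mbtl2, Msx1, Ncam1, Rbbp4, Rbbp7, Usp16, Usp22 and Zbtb32.

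Targets of p53, the inducer of arrest and apoptosis, were lower in 21 of 32 cases and higher in 6, with a median of -0.44. Of the 20 at 100 CPM and over, 18 were lower (median -0.53), beside 62.2% and -0.22 for all genes at that level. Perp, an apoptosis-linked membrane protein, stood at 71.8, 79.7 and 73.7 CPM against 172, 188 and 180 CPM (log2 fold change -1.26, SE 0.05, adjusted p = 5.4e-24), and at a mean of 87.6 CPM in the untreated line. The summed level of the 32 genes was 4646 to 4748 CPM against 6362 to 6458 CPM. Cyclin-dependent kinase inhibitors were lower in 6 of 10 cases (60%, beside 30.6% of all genes) and higher in 2 (20%, beside 32.6%). Cdkn1b, which encodes p27, stood at 48.3, 49.1 and 47.6 CPM against 132, 149 and 128 CPM (-1.49). Cdkn2a, the INK4a and ARF locus and a classical PRC1 target, was higher, at 25.8, 27.2 and 23.2 CPM against 7.92, 7.93 and 7.28 CPM (1.72), above the untreated line at 9.11 CPM.

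Ribosomal protein genes were nearly all lower by small amounts. Of 65, 60 were lower (92.3%), 1 of them at least 2-fold, and 0 higher, with a median of -0.61. Of those at 100 CPM and over, 24 of 24 were lower (median -0.66), beside 62.2% and a median of -0.22 for all genes at that level. Rpl36 stood at 43.2, 47.5 and 42.9 CPM against 101, 93.9 and 87.8 CPM (log2 fold change -1.08), and Rps20 at 116, 129 and 105 CPM against 220, 230 and 214 CPM (-0.93); many such genes have processed pseudogenes, which can take reads. Means in the untreated line and the wild type were 59.5 and 57.8 CPM for Rpl36 and 116 and 121 CPM for Rps20. The double knockout was thus below both for Rpl36 and near both for Rps20. For 14 of the 65 its libraries were the lowest of all 18 (21.5%, against 6.26% of all genes). Cholesterol synthesis genes were lower in 16 of 25 cases and higher in 3 (median -0.35), 12 of 13 being lower at 100 CPM and over. For 15 of the 25 the double knockout libraries were the lowest of all 18, against 6.26% of all genes. Mvd, of the mevalonate pathway, stood at 83.0, 99.1 and 90.8 CPM against 182, 176 and 188 CPM (-1.01), with 198 CPM in the untreated line and 253 CPM in wild type. Insig1, a feedback regulator of the pathway, was lower by 1.14. Mitosis genes were lower in 16 of 26 cases and higher in 1 (median -0.22), and respiratory chain genes lower in 16 of 27 and higher in 0 (median -0.19). Most members of both lists are abundant, and at 100 CPM and over 14 of 20 and 14 of 19 were lower, with medians of -0.23 and -0.21 near that of all genes at that level. Of 26 replication genes 10 were lower and 6 higher (median -0.10, and -0.02 under the stricter filter). Scaling between libraries was redone under that filter, and the medians of the mitosis and respiratory chain lists moved likewise, to -0.15 and -0.11. Small medians such as these therefore depend on the scaling. Ccne1, the cyclin of S phase entry, was higher, at 193, 196 and 195 CPM against 107, 100 and 110 CPM (0.87).

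Interferon-stimulated genes were higher in 19 of 31 cases (61.3%, beside 32.6% of all genes), 15 of them at least 2-fold. They were lower in 5 (16.1%, beside 30.6%), and their median was 1.18. That median rested on weakly expressed members, and was -0.03 when genes under a mean of 50 counts were left out. Parp14 stood at 3.92, 4.55 and 3.39 CPM against 0.270, 0.661 and 0.421 CPM (log2 fold change 3.17, SE 0.31, adjusted p = 8.1e-12), with 3.49 CPM in the untreated line. In none of the 31 were the double knockout libraries the highest of all 18, beside a share of only 6.39% among all genes. Of 22 caspase and death receptor genes 8 were higher and 7 lower (median -0.03), near the shares of all genes. The necroptosis kinase Ripk3 stood at 10.4, 9.97 and 12.1 CPM against 2.88, 2.77 and 2.65 CPM (1.99), its effector Mlkl was higher by 1.69 and the adaptor Fadd by 1.30, near their levels in the untreated line (11.2, 2.42 and 5.65 CPM).

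**Figure D5:**
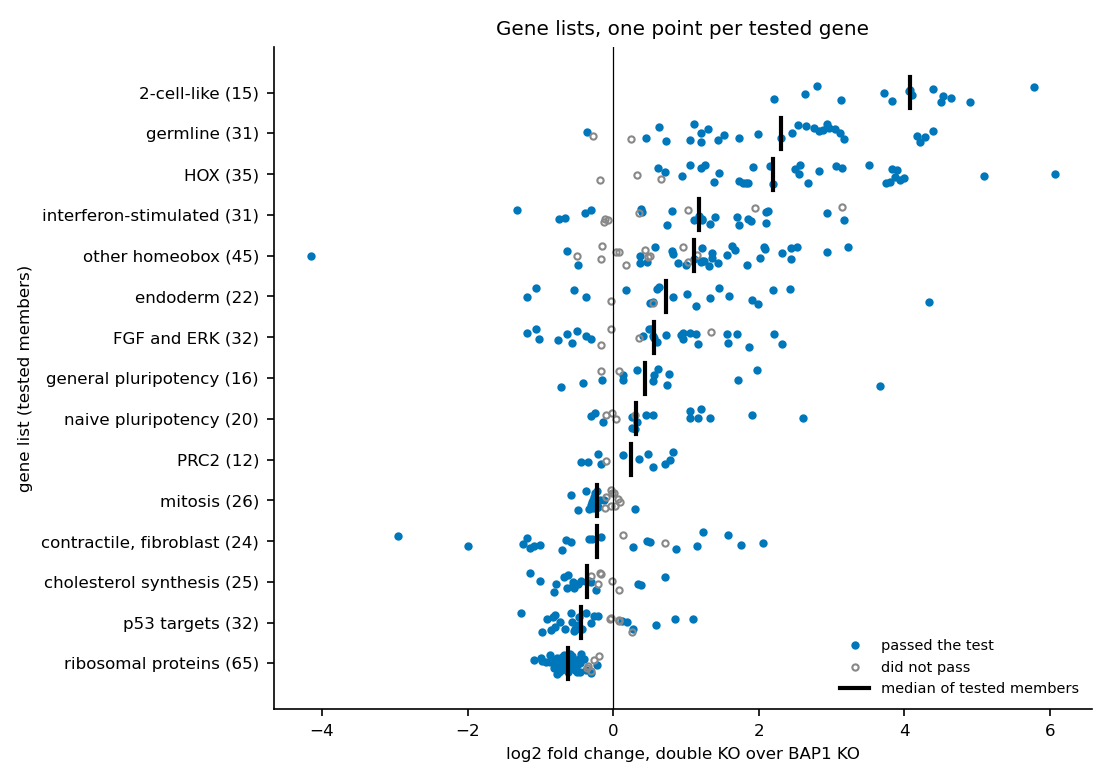
Log2 fold change of double knockout over BAP1 knockout (horizontal axis) for each tested gene of 15 lists, filled where the gene passed the test, with a bar at the list's median. The 2-cell-like, germline and HOX lists lie farthest to the right, with medians of 4.08, 2.30 and 2.20, and the ribosomal protein genes lie farthest to the left, with a median of -0.61. Of the 2-cell-like, germline and HOX genes, 13, 2 and 19 passed the filter only through the double knockout and had to be high there. Without them the medians were 2.67 (2 genes), 1.99 (29 genes) and 1.32 (16 genes).

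By chromosome, autosomal medians ranged from -0.07 to 0.11. The X chromosome had a median of -0.15, with 20.8% of 559 genes higher and 41.3% lower. The medians farthest from 0 came from few genes: 0.51 for 19 mitochondrial genes (36.8% higher, 5.26% lower) and -0.66 for 6 genes of the Y chromosome (50% lower).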

How the data were processed

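Per the labels, polyadenylated RNA was made into TruSeq version 2 libraries and read as single 50-base reads. GSNAP (no version named) was the aligner and GRCm38 the build, per the submitters' processing notes. The deposited sample files hold, per Entrez gene, a count and a size-factor-adjusted RPKM, both made by the authors; how they were computed beyond that is not stated. The counts were analysed, and the deposited RPKM values served only to recover the authors' size factors. Names came from RefSeq (31049 genes) and GENCODE (78), and 5401 stayed unnamed.

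All 18 libraries in 6 groups entered 1 fit (edgeR 4.0.16 in R 4.3.3, limma 3.58.1): filterByExpr on the groups, TMM scaling, quasi-likelihood F test, 1 mean per group and no covariates. Log2 CPM used a prior count of 2. On simulated counts with 200 changed genes among 16875, 82 of 100 changed 2-fold and 74 of 100 changed 1.5-fold were called, with 8 false calls. Depth was 8.11 to 23.0 M counts in the 6 libraries compared. Counting intervals (exact, 95%) and the floor of 3 counts cover counting error only. Alternatives were other size factors, DESeq2 1.42.0, other filters, the 6 libraries alone, equal depth and leaving out each library.

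The comparison and the 43 gene lists were chosen with earlier results of these data known, and some lists repeat ones used before on them, so they support nothing by themselves. Genes were named by rule: Bap1, Rnf2, Ring1, Bcl2 and Mcl1; the 12 highest and 12 lowest called genes with mean log2 CPM of at least 2 and no overlap; up to 4 called members of each list with a mean of at least 1 CPM, and called members of the PRC1, PRC2, BAP1 and BCL2 lists; the 6 highest with at most 2 counts in every knockout library; and the 4 most abundant genes at least 2-fold higher and lower. A gene that this rule names is not reported here.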

Additional observations from a re-analysis of the deposited data

How the results depend on the processing

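The counts of genes higher, lower and at least 2-fold higher or lower stayed within 1.5 times of the reported ones under all alternatives except the stricter filter (mean of at least 50 counts), which tests fewer genes and left 796 genes at least 2-fold higher and 265 at least 2-fold lower. Leaving out 1 library gave 4919 to 5297 genes higher, 4852 to 5070 lower, 2134 to 2232 at least 2-fold higher and 535 to 584 at least 2-fold lower. Higher calls made up 50.3% to 53.1% of calls over the settings, and the median of all genes 0.02 to 0.07. The log2 fold change of Bap1, which did not pass, ran from -0.0114 to 0.0849 without 1 library. Of the genes named by rule, Ankrd1, Asxl2, Asxl3, Bcor, Bcorl1, Bid, Cbx7, Cdkn2c, Eed, Ezh1, Fbrs, Kdm1b, Pcgf1, Pcgf3, Phf1, Rps23, Sfmbt1, Snai2, Trp53cor1, Wnt8a and Yaf2 lost their call under at least 1 alternative; the cause was not tested. Counts given for the PRC1, PRC2, BAP1 complex and pro-apoptotic lists include some of them. No paired analysis was possible because the labels give no replicate numbers. Depth limits genes near 0: the knockout group's floor of 3 counts stands for 0.0850 CPM.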

Other observations

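Imprinted genes, which are read from 1 parental copy, were higher in 14 of 31 cases (45.2%) and lower in 11 (35.5%). The shares of all genes were 32.6% and 30.6%. Dio3, Dlk1 and Meg3 share 1 imprinted domain. Dio3 stood at 3.20, 3.47 and 3.84 CPM against 0.720, 1.06 and 0.361 CPM (log2 fold change 2.47), Dlk1 at 11.5, 11.3 and 13.0 CPM against 5.4, 2.77 and 3.43 CPM (1.62), and Meg3 at 6.93, 5.13 and 5.23 CPM against 2.70, 3.57 and 2.65 CPM (0.99). Groups of these 3 genes did not overlap, and Magel2, of another domain, was higher by 1.74. Genes of DNA methylation were higher in 6 of 14 cases (42.9%) and lower in 5 (35.7%). Among them, Tet1, which oxidises methylcytosine, stood at 538, 491 and 516 CPM against 264, 277 and 255 CPM (0.96). It was at 599 CPM in the untreated line. Extracellular matrix genes were higher in 17 of 28 cases (60.7%) and lower in 7 (25%), with a median of 0.44.

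Genes of glycolysis and hypoxia went both ways, 10 of 28 higher and 9 lower, near the 32.6% and 30.6% of all genes. Pdk1, which holds pyruvate back from the mitochondria, stood at 145, 158 and 146 CPM against 53.8, 59.7 and 61.1 CPM (log2 fold change 1.36), and the enolase gene Eno2 at 23.1, 21.8 and 25.2 CPM against 70.9, 76.1 and 80.1 CPM (-1.69). Genes of the ATF4 stress response were also divided, 9 of 28 higher and 12 lower, with Chac1 higher by 1.47 and Ddit3, which overlaps Mbd6, at -0.82. Of 15 tested genes of blood and vessel 7 were higher and 2 lower. The endothelial receptor Tie1 stood at 5.56, 4.69 and 5.68 CPM against 0.270, 0.132 and 0.301 CPM (4.36), while the 5 blood and vessel markers summed to 15.8 to 17.9 CPM against 12 to 13.6 CPM, with Ptprc at 0 in 4 of the 6 libraries. Cd68, of the lysosome, was lower, at 36.7, 45.5 and 42.2 CPM against 144, 136 and 148 CPM (-1.79).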
